A study of Mus musculus with 6 samples.

Results

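The genes described here are the natriuretic peptide receptors Npr1, Npr2 and Npr3 and the cGMP-dependent protein kinases Prkg1 and Prkg2. They were taken as the rows of the count table that carry these symbols, which gave 5 of 52550 genes, and all 5 passed the filter on low counts. RNA was sequenced from inguinal white fat, a subcutaneous depot, of C57BL/6 mice; the labels name this tissue, but give adipocytes as the source, and describe RNA taken from frozen fat tissue. In the 3 A2B1 libraries the pad had received an adeno-associated virus (AAV) that expresses mouse Hnrnpa2b1, from its coding sequence; the gene encodes an hnRNP that binds RNA. The 3 control libraries came from pads that received an AAV labelled as a scrambled control, which the series' design text also calls AAV GFP. Both groups therefore carried a viral vector, and the labels are silent on the promoter of the vectors, the cells reached, and the age and sex of the mice. The labels do not tie the libraries of a group to different mice. The p-values therefore gauge only how much these libraries vary, some of which may be technical.

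Natriuretic peptides are hormones of the heart and blood vessels that act through membrane receptors. NPR-A, encoded by Npr1, and NPR-B, encoded by Npr2, are guanylyl cyclases that make cyclic GMP when a peptide binds. NPR-C, encoded by Npr3, lacks the cyclase, takes up bound peptide and so clears it. Cyclic GMP activates the kinases PKG-I and PKG-II, encoded by Prkg1 and Prkg2. In fat cells this route is known to stimulate lipolysis and, in mice, genes of heat production, and the balance of Npr1 and Npr3 is often used as a measure of how sensitive fat is to the peptides.

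Npr3 is a gene on the minus strand of chromosome 15 (11839896 to 11907287, mm10), and Npr1 lies on the minus strand of chromosome 3 (90450591 to 90465866). Npr2 is on the plus strand of chromosome 4 (43631935 to 43651244), Prkg1 on the minus strand of chromosome 19 (30564489 to 31765033) and Prkg2 on the minus strand of chromosome 5 (98929773 to 99037351). The 250 bases before the RefSeq start of Npr3 and of Npr1 are shown because these receptors act on the same peptides and had different fold changes. They are given 5′ to 3′ on the gene's strand, from the RefSeq tables of build GRCm38.p6, with capitals marking the letters TGACG (the core of a cAMP response element), CCAAT or GGGCGG on either strand.
Npr3, chr15:11907372-11907621, minus strand: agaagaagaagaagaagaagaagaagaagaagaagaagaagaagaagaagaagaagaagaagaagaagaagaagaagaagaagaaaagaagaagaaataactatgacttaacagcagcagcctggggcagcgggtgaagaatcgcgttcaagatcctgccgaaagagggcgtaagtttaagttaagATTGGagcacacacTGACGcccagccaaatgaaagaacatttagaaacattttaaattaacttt
Npr1, chr3:90465867-90466116, minus strand: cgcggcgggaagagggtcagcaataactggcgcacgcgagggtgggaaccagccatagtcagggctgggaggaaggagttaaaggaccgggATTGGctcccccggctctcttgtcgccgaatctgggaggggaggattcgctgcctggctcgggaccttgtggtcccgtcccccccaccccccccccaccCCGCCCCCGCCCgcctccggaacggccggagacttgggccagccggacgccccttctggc

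In the Npr3 window a run of 85 bases repeated AGA, and G and C made up 38.8% of the bases, against 70.4% in the Npr1 window. The Npr3 window held TGACG once, CCAAT once and GGGCGG 0 times, and the Npr1 window held them 0 times, once and 2 times, with 0 bases shared between motifs in either. Among all 32851 windows of this length in the table, 17.8% held TGACG, 33.8% CCAAT and 32.7% GGGCGG. The Npr2 window held each of these 0 times, and G and C made up 64.4% of its bases. The 2 Prkg1 windows held TGACG 0 times and GGGCGG once each, with 62.8% and 55.2% G and C. Whether any of these features bears on the fold changes was not tested. In GENCODE M21 the tabled start of Npr3 lies 84 bases upstream of the start of its protein-coding transcript Npr3-204, which lacks CAGE support (mapped transcript 5′ ends). It lies 1697 and 1732 bases upstream of the starts of the protein-coding Npr3-205 and Npr3-201, which carry CAGE support. The tabled start of Npr1 coincides with that of the protein-coding Npr1-201, which lacks CAGE support. The count table does not separate transcripts of a gene, so which Npr3 start was used in these pads was not measured.

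Total counts per library lay between 72961324 and 86663359. Hnrnpa2b1 itself, the check of the labels, had 766 ± 20.6 CPM (counts scaled by library size, in units of 1e6; SD, n = 3) in A2B1 libraries and 562 ± 40.1 CPM (SD, n = 3) in control libraries, with no overlap (log2 fold change 0.45, adjusted p = 0.0654 in edgeR's quasi-likelihood test and 0.000113 in DESeq2). Of the 19146 genes tested, 15.1% were likewise higher in A2B1 libraries without overlap. The 8 adipocyte markers summed to 39985 to 40964 CPM in A2B1 libraries and 35657 to 39457 CPM in control libraries, and 0 of the 8 had 0 counts in all libraries. Most other cell types a fat pad can hold had lower marker sums in A2B1 libraries on average. The 8 mural and smooth muscle markers summed to 499 to 607 CPM in A2B1 libraries, against 747 to 1234 CPM in controls. The 8 macrophage markers summed to 304 to 691 CPM in A2B1 libraries, against 704 to 1068 CPM in controls. The 8 endothelial markers summed to 773 to 934 CPM in A2B1 libraries, against 888 to 1280 CPM in controls. The 8 fibroblast and progenitor markers summed to 1023 to 1606 CPM in A2B1 libraries, against 1554 to 1692 CPM in controls. The 8 skeletal muscle markers summed to 3.75 to 14.4 CPM in A2B1 libraries, against 23.5, 26.7 and 173.8 CPM in control libraries 1 to 3. The 8 Schwann cell and nerve markers summed to 70.5 to 102 CPM in A2B1 libraries, against 83.9 to 140.2 CPM in controls. The groups overlapped for endothelial, fibroblast and nerve markers and were separate for mural, macrophage and skeletal muscle markers, with control library 3 far above the other controls for skeletal muscle. On the first principal component A2B1 library 1 stood farthest out, at -107.6, and A2B1 library 2, at 18.1, lay nearer to the controls (26.4 to 69.6) than to A2B1 library 3 (-50.6). In A2B1 library 1 the 8 mammary and skin epithelial markers summed to 47.8 CPM, against 1.57 and 8.38 CPM in the other A2B1 libraries and 1.46 to 1.64 CPM in controls. In control library 1 the 8 lymphocyte markers summed to 336.5 CPM, against 25.9 to 59.3 CPM in A2B1 libraries and 35.7 and 75.0 CPM in the other controls.

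Of the 5 genes, the clearance receptor Npr3 fell, while both cyclase receptors and both kinases missed the threshold. Npr3 fell to 0.400 of its control level (95% interval 0.310 to 0.517). The kinases were also lower in every A2B1 library than in any control, with wider intervals, and Npr1 and Npr2 overlapped between the groups. So 1 of the 5 was called, against 1.82% of the 19146 tested genes in either direction, 1.33% lower and 0.496% higher (edgeR's quasi-likelihood test, Benjamini-Hochberg adjusted p under 0.05 over all tested genes). The count of 349 called genes split into 95 higher and 254 lower, or 49 higher and 251 lower when library totals alone set the scale. The groups did not overlap for 3 of the 5 genes, all lower, against 15.5% of tested genes lower and 30.6% in either direction. The median log2 fold change was -0.63 over the 5 genes and 0.00 over all tested genes.

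**Figure D1:**
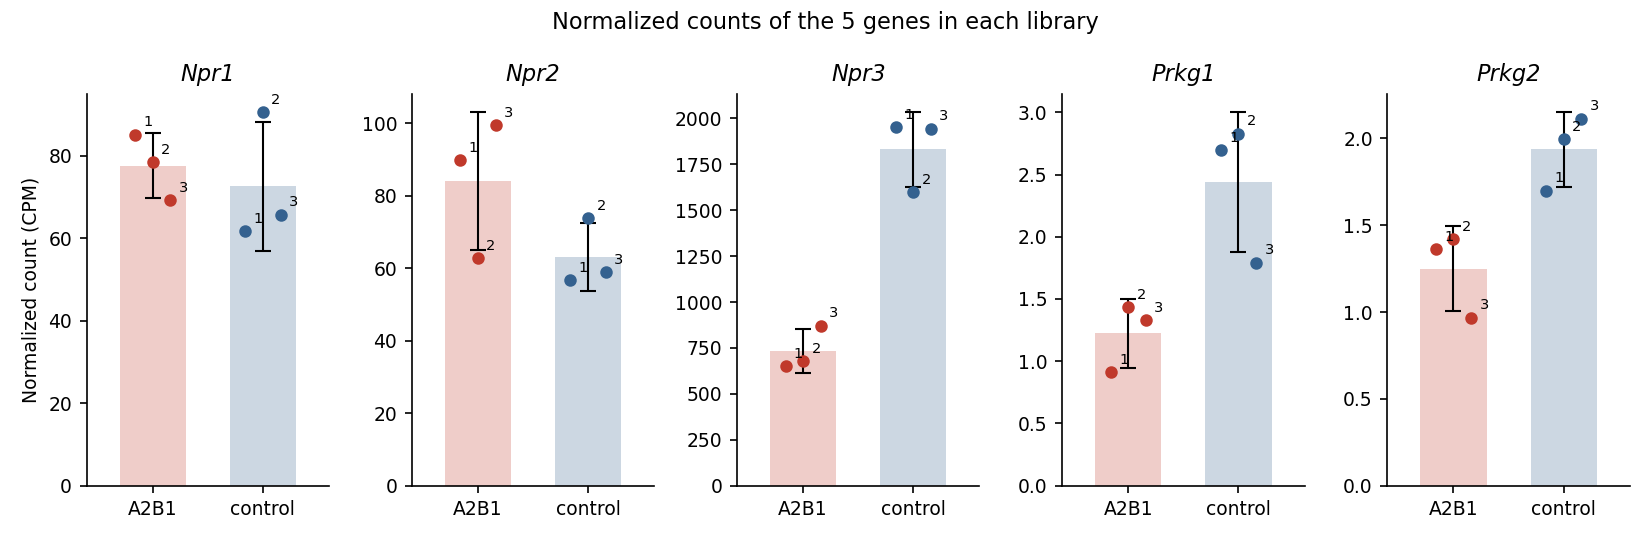
Normalized counts (CPM) of Npr1, Npr2, Npr3, Prkg1 and Prkg2 in the 3 A2B1 and the 3 control libraries. Points are libraries, numbered within their group, bars are means and error bars are SD over 3 libraries; each panel has its own axis from 0. The A2B1 libraries of Npr3 sit between 651 and 872 CPM, all below the control libraries at 1598 to 1952 CPM.

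Npr3 (ENSMUSG00000022206) was the most abundant of the 5 in both groups. It had 44954, 53857 and 64830 counts in A2B1 libraries 1 to 3, and 147144, 142378 and 162830 counts in control libraries 1 to 3. Scaled to library size these were 651, 677 and 872 CPM in A2B1 libraries, against 1952, 1598 and 1945 CPM in control libraries. The highest A2B1 library, the third, lay well below the lowest control, the second, and the gap between them was wider than the range within either group. The means were 733 ± 121 CPM in A2B1 and 1832 ± 203 CPM in control libraries (SD, n = 3 each). The fitted log2 fold change was -1.32 (SE 0.15), with an adjusted p of 0.0248 in edgeR's test, 2.28e-13 in DESeq2 and 0.0212 in limma-voom. By exact permutation of the CPM values, two-sided, p was 0.1, which is the floor for 3 libraries against 3. Limma-voom called Npr3 alone of the 5, against 2.69% of tested genes, 1.83% lower and 0.857% higher. The value did not rest on 1 library, but the call needed all 6. With any single library left out, A2B1 library 1, 2 or 3 or control library 1, 2 or 3, the log2 fold change lay between -1.45 and -1.22 and edgeR's adjusted p between 0.0645 and 0.0898. Among tested genes Npr3 ranked 67th by mean CPM, and 6th by mean CPM among the 254 genes called lower.

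**Figure D2:**
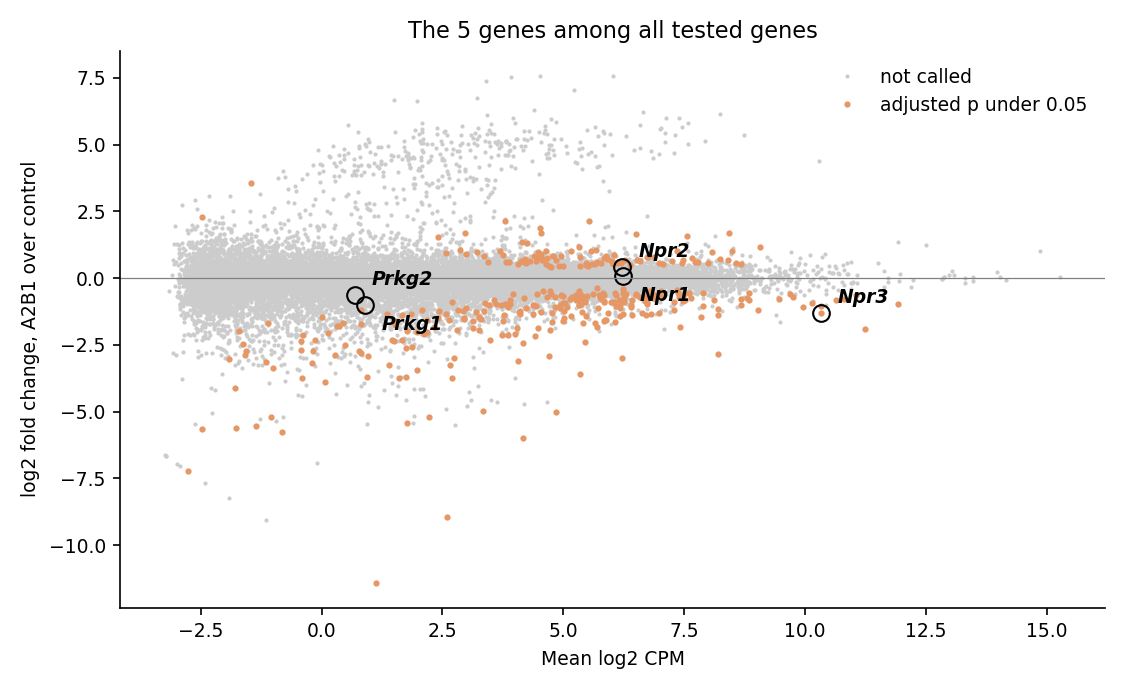
Fitted log2 fold change (A2B1 over control) against mean log2 CPM for all 19146 tested genes, with the 5 genes circled. Orange points have an adjusted p under 0.05 in edgeR's quasi-likelihood test; Npr3, at -1.32, is among them at the abundant end, and the other 4 are not. A separate band of grey points with large positive values holds genes that were higher in A2B1 libraries on average and were not called.

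The level of Npr3 in bulk tissue reflects both how many cells express it and how much RNA each holds, and these cannot be told apart here. The summed adipocyte markers were slightly higher in A2B1 libraries, as given above. Cfd weighed most in that difference, at 5510 CPM in A2B1 and 2172 CPM in control libraries on average. Its control libraries ranged from 916 to 3618 CPM, so the sum does not show a general rise of adipocyte markers. The sums for mural, macrophage, endothelial, fibroblast, skeletal muscle, lymphocyte and nerve markers were lower on average in A2B1 libraries. Of the 8 adipocyte markers 6 had positive and 2 negative log2 fold changes, with a median of 0.28. EdgeR called 1 of the 8, the lipid droplet protein Cidec, which fell by 0.62 on the log2 scale (adjusted p = 0.0497). DESeq2 called 3 higher (Plin1, Retn and Cfd) and 2 lower (Cidec and Adipoq). Over all tested genes edgeR called 1.33% lower, and DESeq2 called 6.96% higher and 8.29% lower. Over all marker lists edgeR called 2 further genes. The smooth muscle actin Acta2 fell by 1.36 on the log2 scale (adjusted p = 0.0375). Pvalb, the calcium buffer of fast muscle fibres, fell to 0 counts in all 3 A2B1 libraries, against 215, 195 and 659 counts in control libraries 1 to 3 (adjusted p = 0.0402). The part of these shifts in the value of Npr3 was not tested.

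Npr1 (ENSMUSG00000027931), the cyclase receptor for atrial and B-type natriuretic peptide, had 85.1, 78.5 and 69.2 CPM in A2B1 libraries 1 to 3, against 61.6, 90.5 and 65.7 CPM in control libraries 1 to 3. The control libraries spanned the whole range of the A2B1 libraries, with control library 2 above all others. The means were 77.6 ± 7.96 CPM in A2B1 and 72.6 ± 15.6 CPM in control libraries (SD, n = 3 each). The log2 fold change was 0.10 (95% interval -0.30 to 0.49, adjusted p = 0.757), so the data allow a ratio of A2B1 to control from 0.812 to 1.41. Its sign turned in limma-voom and without control library 1, where the value was close to 0.

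Npr2 (ENSMUSG00000028469), the cyclase receptor for C-type natriuretic peptide, had 89.9, 62.9 and 99.5 CPM in A2B1 libraries 1 to 3, against 56.7, 73.8 and 58.9 CPM in control libraries 1 to 3. A2B1 libraries 1 and 3 lay above every control, and A2B1 library 2 lay among them. The means were 84.1 ± 19.0 CPM in A2B1 and 63.1 ± 9.33 CPM in control libraries (SD, n = 3 each). The fitted log2 fold change was 0.41 (95% interval -0.05 to 0.88, adjusted p = 0.248). It stayed positive under every setting run, between 0.29 and 0.59, and passed the threshold in none.

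Both kinases were scarce, so counting error adds to their spread. Prkg1 (ENSMUSG00000052920), which encodes PKG-I, the form of smooth muscle and many other tissues, had 63, 114 and 99 counts in A2B1 libraries 1 to 3, against 203, 252 and 150 counts in control libraries 1 to 3. In scaled units these were 0.912, 1.43 and 1.33 CPM in A2B1 libraries, against 2.69, 2.83 and 1.79 CPM in control libraries. Every A2B1 library was below every control, the nearest being A2B1 library 2 and control library 3. The log2 fold change was -0.99 (SE 0.29, 95% interval -1.68 to -0.30), and its adjusted p was 0.127 in edgeR's test, 0.0199 in DESeq2 and 0.113 in limma-voom. DESeq2 thus called 2 of the 5 genes, Npr3 and Prkg1, both lower, against 15.2% of tested genes in either direction, 8.29% lower and 6.96% higher. The ratio of summed and scaled counts was 0.508, with an exact 95% counting interval from 0.439 to 0.587, which covers counting error only. The sum of the mural markers given above was lower in A2B1 libraries as well. Rgs5 was its largest part, at 296 CPM in A2B1 and 523 CPM in control libraries on average. Of the 8 mural markers 6 had negative log2 fold changes and 2 positive, Des (0.46) and Cnn1 (0.21). The part of these markers in the value of Prkg1 was not tested.

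Prkg2 (ENSMUSG00000029334), which encodes PKG-II, the membrane-bound form best known from intestine, brain and bone, had 94, 113 and 72 counts in A2B1 libraries 1 to 3, against 128, 178 and 177 counts in control libraries 1 to 3. These were 1.36, 1.42 and 0.968 CPM in A2B1 libraries, against 1.70, 2.0 and 2.11 CPM in control libraries. The groups were separate but close, with A2B1 library 2 and control library 1 nearest to each other. The log2 fold change was -0.63 (SE 0.24, 95% interval -1.21 to -0.05), and the adjusted p was 0.182 in edgeR's test and 0.102 in DESeq2. Without 1 library it lay between -0.73 and -0.47.

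The order of the levels was the same in both groups apart from one pair of neighbours. Divided by the length of the annotated exons, Npr3 averaged 78.1 CPM per kilobase in A2B1 libraries and 195 CPM per kilobase in control libraries. Npr1 and Npr2 followed, with Npr1 at 16.2 CPM per kilobase in A2B1 and 15.2 CPM per kilobase in control libraries, and Npr2 at 18 CPM per kilobase in A2B1 and 13.5 CPM per kilobase in control libraries. Their ranges overlapped in each group. Prkg2, at 0.233 CPM per kilobase in A2B1 and 0.361 CPM per kilobase in control libraries, was above Prkg1 in every library, which averaged 0.113 CPM per kilobase in A2B1 and 0.224 CPM per kilobase in control libraries. The lengths join all exons in GENCODE M21, which may not be the annotation used for counting, so levels set side by side between genes are approximate.

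The balance between the receptors was compared within each library, where no scaling between libraries enters. There were 7.65, 8.63 and 12.6 counts of Npr3 for each count of Npr1 in A2B1 libraries 1 to 3, against 31.7, 17.7 and 29.6 in control libraries 1 to 3. Control library 2 was the closest of the controls to the A2B1 group and A2B1 library 3 the closest of the A2B1 group to the controls, and the groups did not overlap. The log2 ratio of Npr1 to Npr3 counts was -3.23 ± 0.37 in A2B1 and -4.67 ± 0.46 in control libraries (SD, n = 3 each), a difference of 1.44, or 2.71-fold. The log2 ratio of Npr2 to Npr3 was -3.14 ± 0.29 in A2B1 and -4.86 ± 0.37 in control libraries (SD, n = 3 each), a difference of 1.72, or 3.30-fold. For both, an exact two-sided permutation test gave p = 0.1, the smallest possible, and 0.2 adjusted over the 4 ratios compared. As both ratios share Npr3, they are not independent of each other, nor of the fall of Npr3 given above. The fitted log2 fold change was -1.32 for Npr3, against 0.10 for Npr1 and 0.41 for Npr2, so the ratios mostly restate that of Npr3.

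The ratios within the pair of cyclase receptors and within the pair of kinases overlapped between the groups. The log2 ratio of Npr1 to Npr2 was -0.09 ± 0.42 in A2B1 and 0.19 ± 0.09 in control libraries (SD, n = 3 each; exact permutation p = 0.4, adjusted 0.5). The log2 ratio of Prkg1 to Prkg2 was -0.03 ± 0.52 in A2B1 and 0.31 ± 0.48 in control libraries (SD, n = 3 each; exact permutation p = 0.5, adjusted 0.5).

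**Figure D3:**
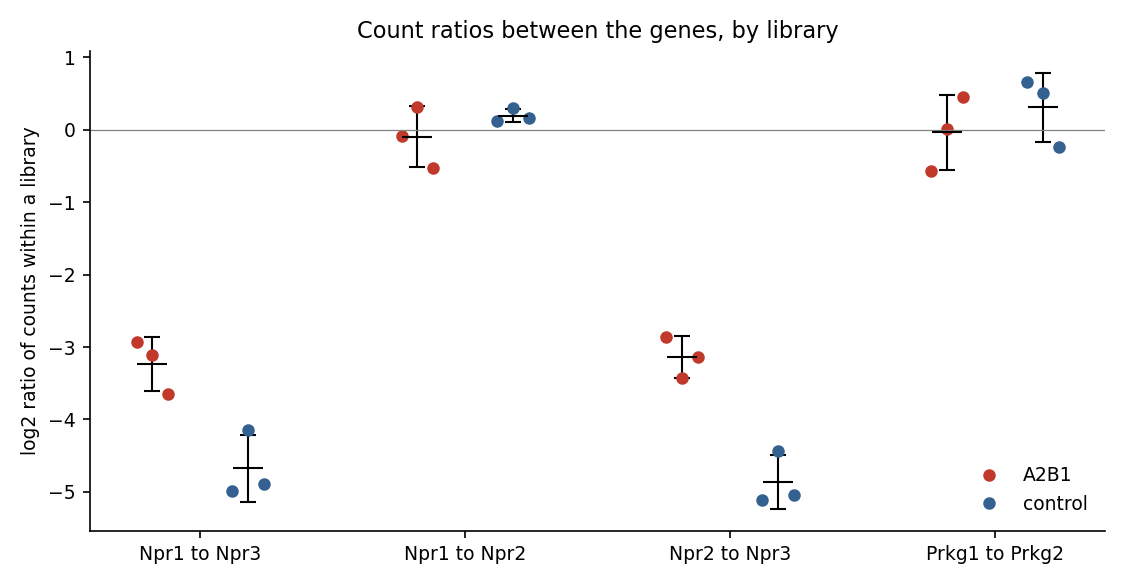
The log2 ratio of counts within each library for 4 pairs of genes, in A2B1 and control libraries. Points are libraries, horizontal marks are means and error bars are SD over 3 libraries; the A2B1 libraries sit above the controls for Npr1 to Npr3 and Npr2 to Npr3, by 1.44 and 1.72 on average, and overlap them for the other pairs.

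The genes whose profile over the 6 libraries was most like that of Npr3 were Cavin3, Pfkfb4 and Prss12. Likeness was the root mean square difference in log2 CPM, after centring each gene on its own mean, among 12977 genes with a mean log2 CPM of at least 1. Cavin3, a component of the coat of caveolae, differed from Npr3 by 0.06 and had 56.3, 61.3 and 72.0 CPM in A2B1 libraries, against 175, 147 and 162 CPM in control libraries. Pfkfb4, a regulatory enzyme of glycolysis, differed by 0.11, and the secreted serine protease Prss12 by 0.13. Those nearest to Prkg1 were P2rx7, C1qtnf5 and Tril, at 0.10 to 0.13. Sh3rf1, Pakap and Adcy4 were nearest to Npr1 (0.06 to 0.07), Oplah, Setd4 and Mief2 to Npr2 (0.08 to 0.09), and CT010498.2 and Ugt1a6b were near to Prkg2 (0.07 to 0.09). Genes chosen for likeness tend to share the direction of the gene they were matched to, so their values are a description.

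The hormones of the system were at or near 0 in the pads, and their processing enzymes were measured. Nppa, which encodes atrial natriuretic peptide, had 0, 5 and 0 counts in A2B1 and 0, 2 and 5 counts in control libraries. Nppb, for the B-type peptide, had 2 counts in A2B1 library 3 and 0 in the 5 others. Nppc, for the C-type peptide, had 0 counts in all 6 libraries, which allows up to 0.0135 CPM over the A2B1 group and 0.0121 CPM over the control group (a floor of 3 counts per group, for counting error only). Ostn, whose product osteocrin binds NPR-C, had 2 counts in control library 3 and 0 elsewhere. Of the 8 genes for peptides and processing, 4 could be tested and 0 passed in edgeR or DESeq2, with 1 higher at an unadjusted p under 0.05. Over all tested genes 11.5% were higher and 12.7% lower at that unadjusted p, and 9624 of 19146 were positive and 9522 negative, which is the background for this and the following lists. Mme, the membrane protease neprilysin that degrades the peptides, had 206 ± 27.8 CPM in A2B1 and 258 ± 32.6 CPM in control libraries (SD, n = 3 each), with -0.33 as log2 fold change (adjusted p = 0.219 in edgeR). Corin, the protease that activates the precursor of atrial natriuretic peptide, was scarce at 0.263 ± 0.083 CPM in A2B1 and 0.221 ± 0.119 CPM in control libraries (SD, n = 3 each).

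The other source of cyclic GMP, the nitric oxide-activated cyclase, also missed the threshold. Its subunits Gucy1a1 and Gucy1b1, listed under the older symbols Gucy1a3 and Gucy1b3, were lower in every A2B1 library than in any control. The same held for 15.5% of all tested genes. Gucy1a1 had 17.1 ± 9.47 CPM in A2B1 and 35.2 ± 9.49 CPM in control libraries (SD, n = 3 each), or -1.04 as log2 fold change with an SE of 0.48 (adjusted p = 0.247 in edgeR). Gucy1b1 had 13.0 ± 3.01 CPM in A2B1 and 21.6 ± 6.80 CPM in control libraries (SD, n = 3 each), or -0.73 as log2 fold change with an SE of 0.27 (adjusted p = 0.178 in edgeR). Nos3, the endothelial nitric oxide synthase, had 88.8 ± 10.4 CPM in A2B1 and 79.5 ± 12.7 CPM in control libraries (SD, n = 3 each), with 0.16 as log2 fold change (adjusted p = 0.528 in edgeR). Of 12 nitric oxide synthases and other guanylyl cyclases, 8 could be tested, 0 passed in edgeR, 2 were lower at an unadjusted p under 0.05 (12.7% over all tested genes), and DESeq2 called 1 lower (8.29% over all tested genes), the inducible synthase Nos2 (log2 fold change -0.65, adjusted p = 0.103 in edgeR and 0.00833 in DESeq2). The median log2 fold change of the 8 was -0.63.

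Among the enzymes that degrade or export cyclic GMP, Pde3b came nearest to the threshold. Pde3b, the phosphodiesterase of fat cells whose hydrolysis of cyclic AMP is inhibited by cyclic GMP, had 724, 777 and 778 CPM in A2B1 libraries, against 410.5, 467 and 552 CPM in control libraries. The groups did not overlap, with A2B1 higher, as for 15.1% of all tested genes. The log2 fold change was 0.67 (SE 0.13), with an adjusted p of 0.0591 in edgeR's test, 8.22e-05 in DESeq2 and 0.0419 in limma-voom. The cGMP-specific enzymes Pde5a and Pde9a gave -0.49 and -0.08 on the log2 scale (adjusted p = 0.226 for Pde5a and 0.903 for Pde9a in edgeR). Of the 12 genes of breakdown and export 0 passed in edgeR, and 3 were higher and 1 lower at an unadjusted p under 0.05 (11.5% higher and 12.7% lower over all tested genes). DESeq2 called Pde3b only, against 6.96% of all tested genes higher and 8.29% lower. The median log2 fold change of the 12 was -0.13.

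Most substrates of the kinases had negative values, but the largest in size was positive. It was that of Rgs2 (log2 fold change 1.24, SE 0.56, adjusted p = 0.242 in edgeR). Vasp, an actin regulator whose phosphorylation is a common readout of PKG activity, had 33.7 ± 3.78 CPM in A2B1 and 43.7 ± 7.13 CPM in control libraries (SD, n = 3 each), with -0.38 as log2 fold change (adjusted p = 0.184 in edgeR). Of 10 substrates, 8 were negative, 0 passed in edgeR and 4 were lower at an unadjusted p under 0.05 (12.7% over all tested genes), with a median log2 fold change of -0.26. DESeq2 called 3 lower, against 8.29% of all tested genes. These were the calcium channel Itpr1 (log2 fold change -0.46), the actin-binding Lasp1 (-0.32) and the LIM protein Crip2 (-0.58). The transcripts of Vasp and of the other substrates say nothing of phosphorylation, which was not measured.

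Genes of lipolysis and heat production downstream of cyclic GMP were mostly positive. Of 9, 8 were positive, 0 passed in edgeR, 5 were higher and 1 lower at an unadjusted p under 0.05 (11.5% higher and 12.7% lower over all tested genes), and the median log2 fold change was 0.39, against 0.00 over all tested genes. Lipe, the hormone-sensitive lipase phosphorylated by PKG in human fat cells, had a log2 fold change of 0.15 (adjusted p = 0.632), with 1766 ± 230.1 CPM in A2B1 and 1591 ± 309 CPM in control libraries (SD, n = 3 each). Ucp1, whose product uncouples respiration in brown and beige fat, had 248, 670 and 575 counts in A2B1 libraries, against 49, 15 and 5 counts in control libraries (adjusted p = 0.0695 in edgeR and 5.14e-08 in DESeq2). DESeq2 called 4 of the 9, Ucp1, the lipid droplet protein Plin1 and the coactivator Ppargc1a higher and the kinase Mapk14 lower. Over all tested genes DESeq2 called 6.96% higher and 8.29% lower. Over these 5 lists together, 43 of 51 genes could be tested. Of these, 0 passed in edgeR and 17 had an unadjusted p under 0.05, against 24.2% of all tested genes. DESeq2 called 9 and limma-voom 2, against 15.2% and 2.69% of all tested genes.

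**Figure D4:**
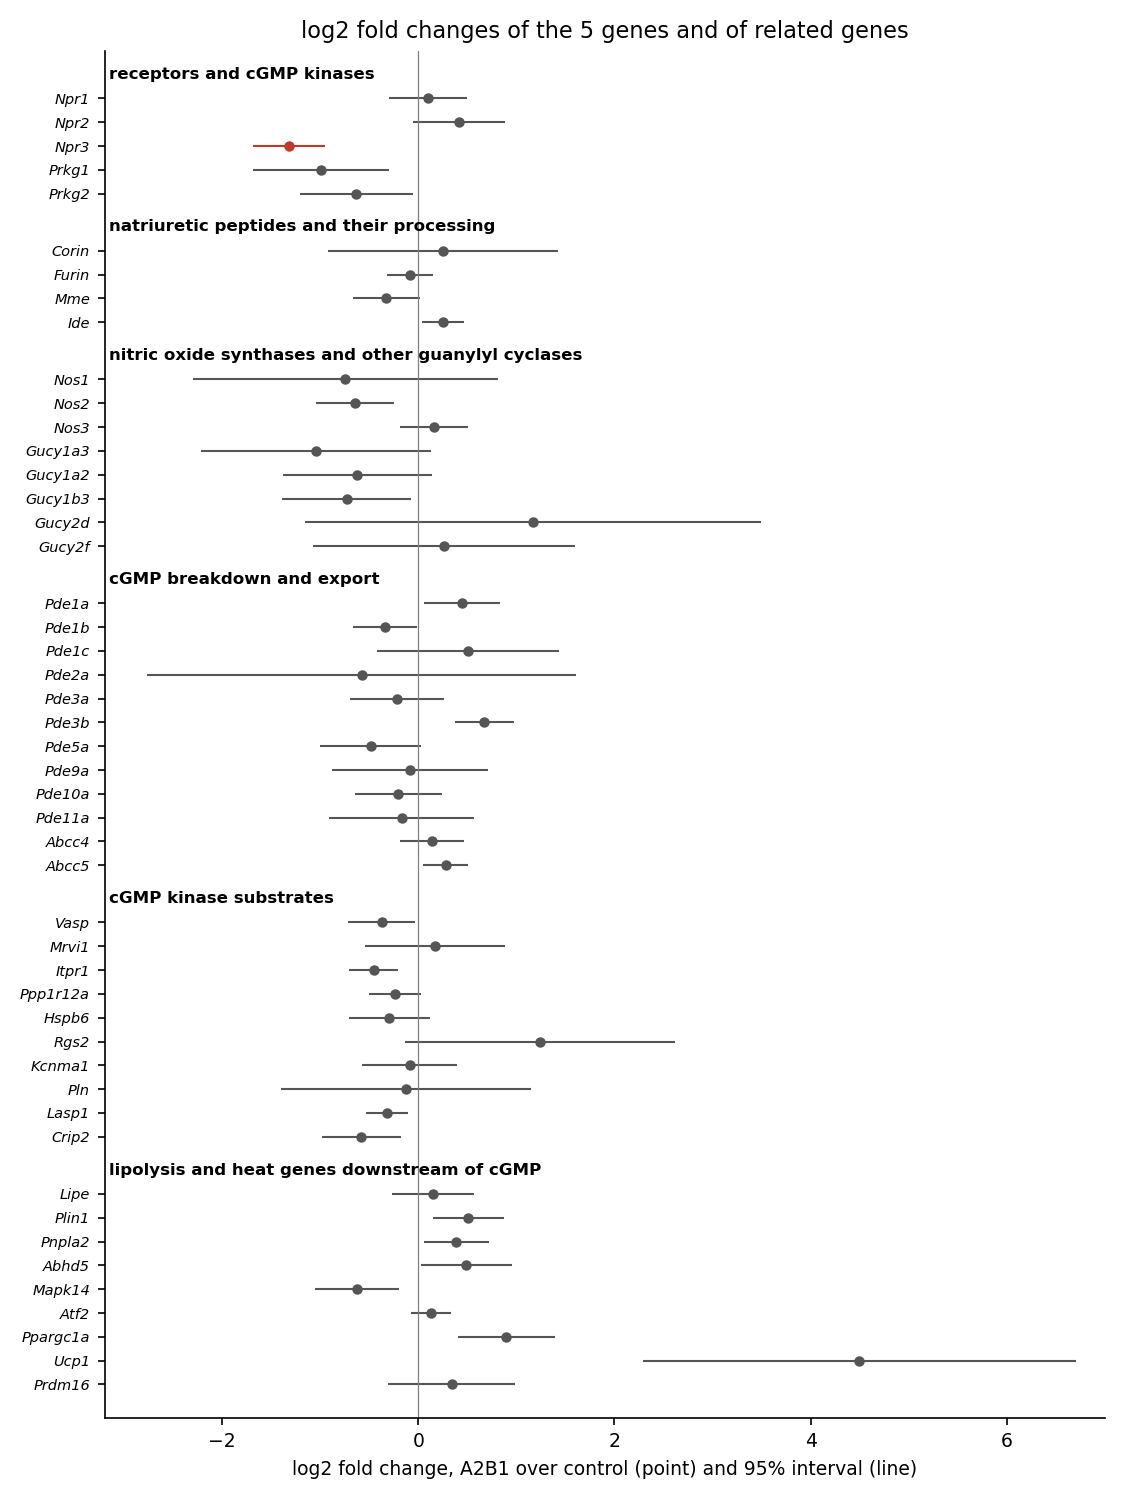
Fitted log2 fold change (A2B1 over control; point) with its 95% interval (line) for the 5 genes and for the 43 tested genes of the 5 related lists. Red marks an adjusted p under 0.05 in edgeR's quasi-likelihood test, which only Npr3 reached, at -1.32; intervals are not adjusted for the number of genes.

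Npr3, Npr1 and Npr2 each share some exon bases with a gene model on the other strand, and without a stated strand setting such reads cannot be told apart. Gm16048 shares 559 bases with Npr1 and had 54 to 85 counts per library, and Gm12473 shares 266 bases with Npr2 and had 39 to 100 counts. Gm5144 shares 321 of the 9389 exon bases of Npr3 and has no row in the table used here. Against 4270 to 8066 counts of Npr1 or Npr2 per library, the counts of the first pair of partners are small. Prkg1 and Prkg2 share no exon base with another gene model.

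**Figure D5:**
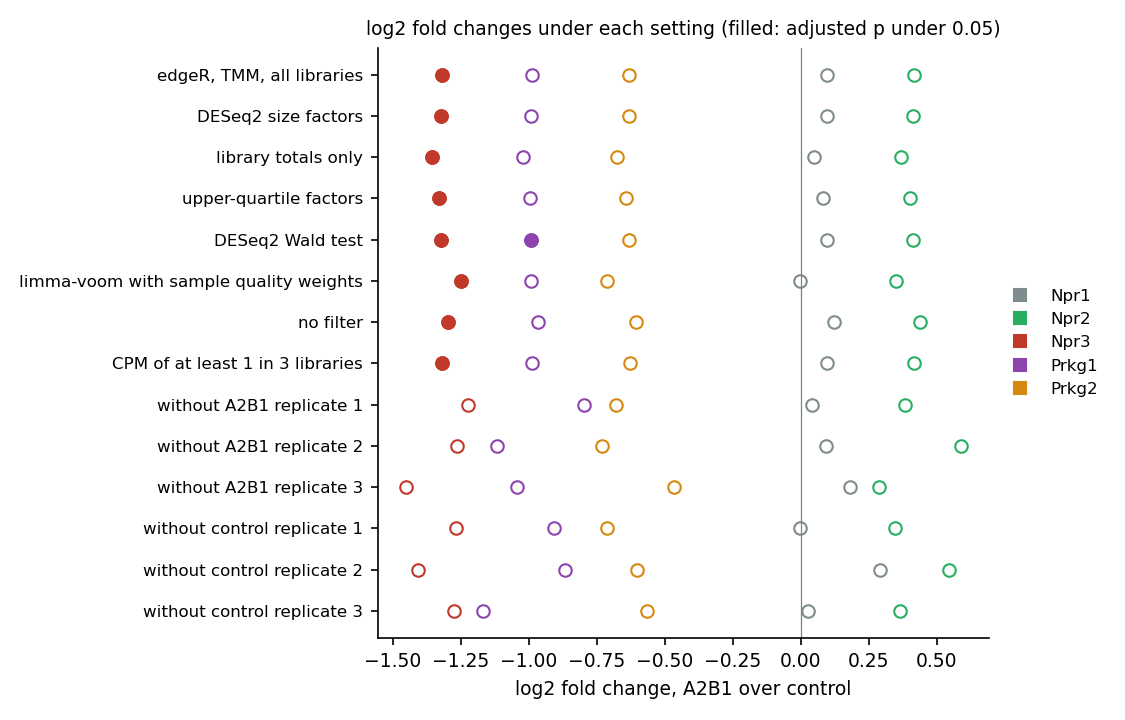
log2 fold changes (A2B1 over control) of the 5 genes in edgeR's test as reported, in 7 fits with another scaling, tool or filter, and in 6 fits without 1 library. Filled points have an adjusted p under 0.05. Npr3 stays between -1.45 and -1.22, filled in the 8 fits that use all libraries and open in the 6 fits without one; of the other genes only Prkg1 is filled, in DESeq2.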

How the data were processed

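Trizol-extracted RNA from frozen inguinal fat was made into Illumina TruSeq libraries, per the labels' protocols. The authors deposited raw read counts per gene, with 1 column per library, per the file headers. The submitters' processing notes name Bowtie and mm10; the counting program, annotation and strand setting were not given in the sources used here. Groups follow the virus named in the labels. All 5 genes were matched by symbol, and a symbol with several IDs was taken at the ID with most counts.

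Of 31438 genes with any count, 19146 passed edgeR's filterByExpr (10 counts in enough libraries, 15 in total). The fit was edgeR 4.0.16 in R 4.3.3 (robust quasi-likelihood F test, TMM scaling, 1 term for group), with a Benjamini-Hochberg adjusted p under 0.05 called; the common biological coefficient of variation was 33.6%. The standard error is the log2 fold change divided by the square root of F. CPM uses TMM-scaled library sizes. Ratios within a library used counts plus 0.5. For scaling, the alternatives to TMM were size factors as in DESeq2, upper quartiles and plain totals. Other tools were the Wald test of DESeq2 1.42.0 and voom with quality weights in limma 3.58.1. The filter was dropped or set at a CPM of 1 in 3 libraries. The threshold was also set at 0.1, the pseudocount at 10, and each library was left out. On counts simulated for this comparison (19146 genes), 13 of 50 genes changed 2-fold and 39 of 50 changed 4-fold were recovered, and 6 of 105 calls were false.

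Named genes were the 5 members, Hnrnpa2b1, called genes of the lists, 16 list genes set whatever their values, and the 3 genes nearest in profile to each member. Of these nearest genes, 1 gene is not reported here. List genes named only because DESeq2 called them, Rgs2, and markers named singly were chosen after their values were seen. The members and lists were chosen with earlier results of these data known. Coordinates and exon lengths come from GENCODE M21, which holds 52403 of the 52550 gene IDs.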

Additional observations from a re-analysis of the deposited data

How the results depend on the processing

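Npr3 kept its direction under every alternative. It kept its call with the other scalings, filters and tools (log2 fold change -1.35 to -1.25, adjusted p 2.28e-13 to 0.026) and lost it in each fit without 1 library (-1.45 to -1.22, adjusted p 0.0645 to 0.0898). The number of the 5 genes called was then 0 in each such fit, and 2 in DESeq2. The number of all genes called was 10 to 57 without 1 library, 2919 in DESeq2 and 1270 at an adjusted p of 0.1; fits without 1 library hold fewer samples. Of the related genes, 9 were called in DESeq2, 2 in limma-voom, 1 with the CPM filter and 4 at an adjusted p of 0.1, against 0 as reported and 0 without any 1 library. Npr1 turned sign in limma-voom (-0.0052) and without control library 1 (-0.0047, in a range up to 0.29). Without 1 library the log2 ratio difference stayed at 1.28 to 1.70 for Npr1 to Npr3 and 1.58 to 1.94 for Npr2 to Npr3, and no ratio changed sign. No scaling moved the median gene by more than 0.1 on the log2 scale. No paired analysis was possible because the labels give the groups no shared replicate numbers. Low counts, at most 252 per library, limit the kinases, and 3 libraries per group limit every call.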

Other observations

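The count of Pde2a, a phosphodiesterase that cyclic GMP stimulates, could not be read alone. It shares 3955 exon bases on the same strand with the gene model Gm45837, and its part of their joint counts was 80.6%, 10.8% and 70.2% in A2B1 libraries 1 to 3, against 71.7%, 68.7% and 19.6% in control libraries 1 to 3. The joint counts, not scaled to library size, were 8309, 9333 and 8813 in A2B1 libraries, against 13249, 17090 and 12839 in control libraries. This unscaled sum was lower in all 3 A2B1 libraries, as scaled counts were for 15.5% of all tested genes. Pde2a alone overlapped between the groups (log2 fold change -0.58, SE 0.88, adjusted p = 0.724 in edgeR). The sum was formed after the values were seen, and how reads were divided between these models was not tested.

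Gucy2e, a guanylyl cyclase best known from the retina, was listed with 0 counts in each of the 3 A2B1 libraries, against 13, 5 and 4 counts in control libraries 1 to 3. Of these 22 counts, 13 came from control library 1. It was too scarce to be tested across genes and was singled out after its values were seen.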
